A study of Mus musculus with 23 samples.

Results

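The genes of antigen presentation by major histocompatibility complex (MHC) class II were followed in bulk RNA-seq of the mouse pancreas before and after caerulein pancreatitis. The genes were taken by name: *H2-Aa*, *H2-Ab1* and *H2-Eb1* for the class II molecules, *Cd74* for the invariant chain, *H2-DMa*, *H2-DMb1* and *H2-DMb2* for peptide loading, and *Ciita* for the transcriptional activator. All 8 were found among the 18512 gene symbols of the count files. RNA came from the head of the pancreas of C57BL/6 mice that were 6 to 8 weeks old. Injured mice had received 8 hourly intraperitoneal doses of caerulein, a secretagogue that overstimulates acinar cells, at 50 µg/kg on each of 2 days. The groups were 8 non-injured baseline mice (4 female, 4 male), 8 mice at day 7 post-injury (4 female, 4 male) and 7 mice at day 14 post-injury (3 female, 4 male). Each library came from 1 mouse and from whole tissue, so fewer cells of a type and less RNA per cell cannot be told apart.

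Class II molecules are pairs of an α and a β chain that display peptides from engulfed protein to CD4 T cells. They are made above all by dendritic cells, macrophages and B cells. The invariant chain guards the peptide groove until it is cut away in the endosome, the H2-DM dimer then exchanges its last fragment for peptide, and CIITA, which does not bind DNA itself, switches the whole set on through factors bound to short promoter elements. These elements are known as the X box, bound by the RFX complex, and the Y box, bound by NF-Y.

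The promoters are shown as background on these elements. Whether their letters bear on how the genes varied across mice was not tested. RefSeq promoter sequences (GRCm38.p6, 250 bases before to 50 bases after the start of transcription) were matched for 5 of the 8 genes. No entry was matched for *H2-Ab1*, *Cd74* and *Ciita*. Capitals mark the letters TGATTGG (Y) and AACNNATGA (X), searched on both strands, with N for any base. Positions are 5′ to 3′ on the strand of the gene. The stretches were chr17:34287844-34287933 (minus strand) for *H2-Aa*, chr17:34305746-34305835 for *H2-Eb1*, chr17:34153068-34153157 for *H2-DMb1*, chr17:34145097-34145186 for *H2-DMb2* and chr17:34238786-34238875 for *H2-Ob*, a related gene that encodes a chain of H2-DO, the inhibitor of H2-DM.
H2-Aa: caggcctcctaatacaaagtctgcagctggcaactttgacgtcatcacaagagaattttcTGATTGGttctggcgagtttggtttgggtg
H2-Eb1: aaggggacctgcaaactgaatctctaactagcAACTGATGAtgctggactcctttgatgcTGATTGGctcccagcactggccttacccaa
H2-DMb1: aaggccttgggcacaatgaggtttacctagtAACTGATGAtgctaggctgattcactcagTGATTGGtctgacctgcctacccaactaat
H2-DMb2: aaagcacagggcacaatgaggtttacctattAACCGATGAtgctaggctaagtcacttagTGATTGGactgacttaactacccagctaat
H2-Ob: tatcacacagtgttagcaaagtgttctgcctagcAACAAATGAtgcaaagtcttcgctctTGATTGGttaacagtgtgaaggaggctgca

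The Y letters were present in 4 of the 5 promoters, starting at positions -50, -61, -63 and -92 from the start of transcription in *H2-Aa*, *H2-Eb1*, *H2-DMb1* and *H2-DMb2*, and neither promoter listed for *H2-DMa* held them. Of all 32851 promoters of the same length, 7.82% held the Y letters. The X letters were present in 3 of the 5, *H2-Eb1*, *H2-DMb1* and *H2-DMb2*, and in 2.85% of all promoters. Of 3 related class II genes, all with the Y letters, *H2-Ob* held the X letters and *H2-Oa* and *H2-Eb2* did not. In the 4 genes with both, the X letters lay 17 to 20 bases before the Y letters, with no overlap, and 0.307% of all promoters held both. A match of letters is a description and not a measured binding site.

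The libraries held 7059890 to 9567446 counts. The 12 acinar marker genes, digestive enzymes such as *Cpa1* and *Pnlip* with the regulators *Ptf1a* and *Rbpjl*, summed to between 234000 and 584000 CPM (the share of a library's counts, scaled to a common library size) in every mouse, so the defining markers of the labelled tissue were present in each library. Library sizes for CPM were scaled by TMM, whose factors ran from 0.769 to 1.40. *Glycam1*, a marker of the high endothelial venules of lymph nodes, had 38 to 626 counts in 5 mice and at most 1 count in the other 18. The 5, called the mice with *Glycam1* below, were mouse 5 at baseline, mice 10 and 15 at day 7 and mice 19 and 21 at day 14. In the same 5 mice 12 B cell markers summed to 37.1 to 170 CPM and 10 T cell markers to 12.2 to 80.9 CPM, against 0.348 to 25 and 0.696 to 8.41 CPM in the others, while 12 macrophage markers overlapped (161 to 321 against 64 to 282 CPM). The results below are therefore given with and without these 5 mice, a split that was chosen after seeing the data.

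Levels of different genes were compared per kilobase of annotated exon (GENCODE vM21). *Cd74* was the most abundant, with a median over the 23 mice of 17.2 CPM per kilobase, and it was above the next gene, *H2-Eb1*, in 23 of 23 mice. *H2-Eb1* itself was at 6.66, *H2-Ab1* at 5.18 and *H2-Aa* at 4.71 CPM per kilobase, and *H2-Ab1* was above *H2-Aa* in 15 of 23 mice, so the order of these genes varied between mice. Levels of the peptide loading genes and the activator were lower, with *H2-DMb1* at 0.776, *H2-DMa* at 0.455, *Ciita* at 0.185 and *H2-DMb2* at 0.127 CPM per kilobase. *Ciita* was above *H2-DMb2* in 14 of 23 mice. The order among the class II chains, and that of *H2-DMa* and *H2-DMb1*, depended on the length used. With the principal transcript in place of all exons, *H2-Aa* came to 15.9, *H2-Ab1* to 11 and *H2-Eb1* to 7.76 CPM per kilobase, each above the next in 23 of 23 mice, and *Cd74* stayed first at 20.4. With that length *H2-DMa* came to 0.945 and *H2-DMb1* to 0.929, with *H2-DMa* above in 13 of 23 mice.

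*H2-Aa* (chr17:34282744-34287823, minus strand, GRCm38) encodes the α chain of I-A, the class II molecule of this strain. At baseline it ranged from 4.70 CPM in mouse 8 to 80.7 CPM in mouse 5, with a median of 15.1 CPM. At day 7 post-injury it ranged from 15.1 to 124 CPM with a median of 31.4, and at day 14 from 11.4 to 77.9 CPM with a median of 16.3. All 8 mice of day 7 were above the baseline median, but only 2 were above every baseline mouse, and the 3 groups overlapped. Baseline mice averaged 24.5 ± 25.4 CPM (SD, n = 8), those of day 7 averaged 49.2 ± 41.5 CPM (n = 8) and those of day 14 averaged 26.9 ± 23.8 CPM (n = 7). The fitted log2 fold change of day 7 against baseline was 0.98 (SE 0.61, 95% interval -0.30 to 2.26, edgeR adjusted p = 0.283), which is 1.97 times the baseline level with an interval from 0.814 to 4.79 times.

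The β chain partner *H2-Ab1* (chr17:34257689-34269419) followed the same mice. It had a median of 9.63 CPM at baseline (4.35 to 63.6), 22.1 CPM at day 7 (10.2 to 86.9) and 14.2 CPM at day 14 (8.08 to 53.4). Mouse 8 was lowest and mouse 5 highest at baseline, mouse 10 was highest at day 7 and mouse 21 at day 14. Of the 8 mice at day 7, all lay above the baseline median and 1 above every baseline mouse. Its log2 fold change at day 7 was 0.90 (SE 0.61, interval -0.37 to 2.17, edgeR adjusted p = 0.322).

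*H2-Eb1* (chr17:34305867-34316674) encodes the β chain of I-E, and the gene of its α chain, *H2-Ea-ps* in this strain, was not analysed here. Transcripts of *H2-Eb1* were nevertheless counted in every mouse. The median was 11.9 CPM at baseline (3.31 to 60), 23.6 CPM at day 7 (12.2 to 94.7) and 13.7 CPM at day 14 (7.61 to 53.2). The groups overlapped, and mice 5, 10 and 21 were again the highest of their groups. The log2 fold change at day 7 was 0.96 (SE 0.60, interval -0.29 to 2.22, edgeR adjusted p = 0.283). An antisense gene, *Gm20513*, overlaps *H2-Eb1*.

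*Cd74* (chr18:60803848-60812652), the gene of the invariant chain, had the most counts of the 8 genes, from 45 in mouse 8 to 2620 in mouse 10. The median was 23.1 CPM at baseline (7.83 to 137), 52.0 CPM at day 7 (26.1 to 196) and 30.0 CPM at day 14 (19.2 to 135). The mean was 40.6 ± 43.0 CPM (SD, n = 8), 78.0 ± 64.9 CPM (n = 8) and 47.3 ± 42.1 CPM (n = 7). All 8 mice at day 7 exceeded the baseline median, 2 exceeded every baseline mouse, and no group stood apart. The log2 fold change at day 7 was 0.93 (SE 0.62, interval -0.35 to 2.22, edgeR adjusted p = 0.313), or 1.91 times baseline.

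**Figure D1:**
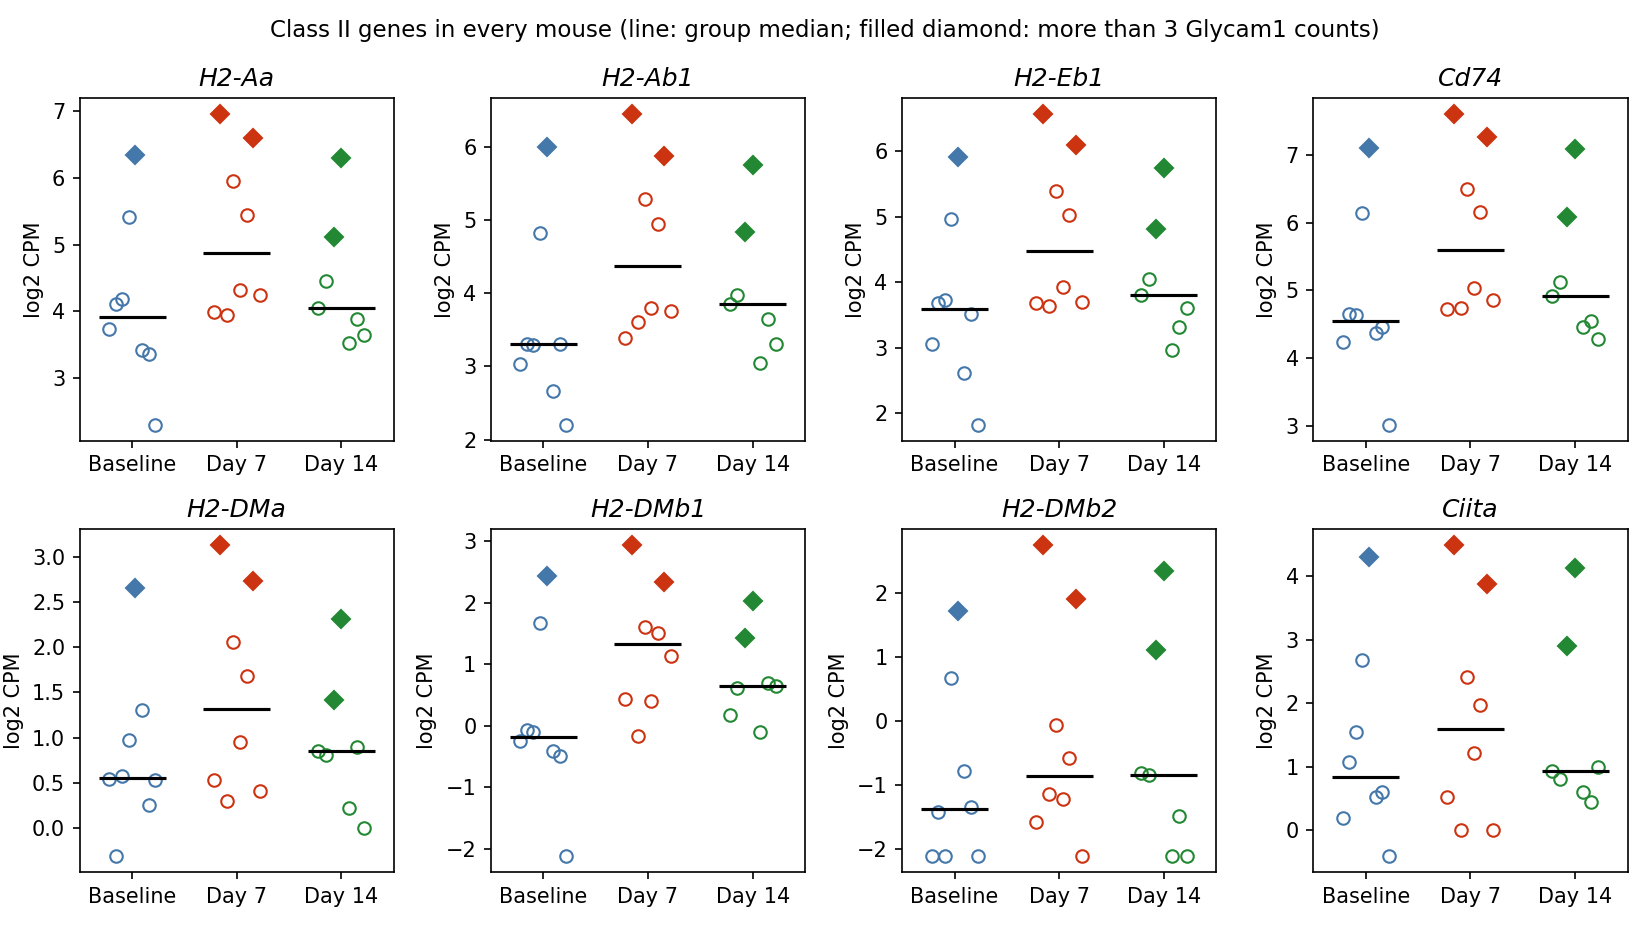
Level of each of the 8 genes in every mouse, as log2 CPM (vertical axis, prior count of 2) by group (horizontal axis), with black lines for group medians and filled diamonds for the 5 mice with more than 3 *Glycam1* counts. The diamonds are the highest points of their group for every gene, and the open circles of the 3 groups overlap.

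*H2-DMa* and *H2-DMb1* encode the 2 chains of H2-DM, the exchange factor for peptides. *H2-DMa* (chr17:34119541-34139101) had a median of 1.25 CPM at baseline (0.579 to 6.03), 2.34 CPM at day 7 (1 to 8.51) and 1.57 CPM at day 14 (0.772 to 4.72). The fewest counts were 4, in mouse 2, so single values are imprecise. Its span is overlapped by *Brd2* on the other strand, and whether the counting used the strand is not given in the sources used here. Its log2 fold change at day 7 was 0.85 (SE 0.53, interval -0.27 to 1.96, edgeR adjusted p = 0.289).

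*H2-DMb1* (chr17:34153072-34160230) had 0 counts in mouse 8 at baseline and 100 in mouse 10 at day 7. Its median was 0.659 CPM at baseline (highest 5.17), 2.30 CPM at day 7 (0.668 to 7.46) and 1.32 CPM at day 14 (0.702 to 3.86). All 8 mice at day 7 and all 7 at day 14 were above the baseline median, while 1 mouse at day 7 and none at day 14 was above every baseline mouse. The log2 fold change at day 7 was 0.96 (SE 0.61, interval -0.32 to 2.24, edgeR adjusted p = 0.296).

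*H2-DMb2* (chr17:34143307-34151555), a second β chain gene of H2-DM, was too low for the fit. It had 0 counts in 3 of 8 mice at baseline, 1 of 8 at day 7 and 2 of 7 at day 14. A count of 0 allows up to 3 counts, or 3.19e-05% to 4.25e-05% of these libraries, for counting error only. Its median was 0.153 CPM at baseline, 0.330 CPM at day 7 and 0.326 CPM at day 14, and its highest values were 3.08 CPM in mouse 5, 6.49 CPM in mouse 10 and 4.83 CPM in mouse 21. The mean differed by 0.83 CPM between day 7 and baseline (exact two-sided permutation test, p = 0.413, 8 mice in each group). Without the 5 mice with *Glycam1* the difference was -0.00574 CPM (exact p = 0.986), with 0.281 CPM in 6 mice at day 7 and 0.287 CPM in 7 at baseline. *H2-DMb1* and *H2-DMb2* share 254 of their windows of 75 bases, and 84.2% and 83.9% of their windows were found in no other gene, so reads from the shared stretches may be missing from both counts, which hold uniquely mapped fragments only.

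*Ciita* (chr16:10480059-10528418) encodes the activator of the set and had the widest spread among mice of the 7 genes in the fit. *Dexi* overlaps it on the other strand, with the same doubt about strand as for *H2-DMa*. It had a median of 1.59 CPM at baseline (0.522 to 19.4), 2.89 CPM at day 7 (0.770 to 22.3) and 1.68 CPM at day 14 (1.13 to 17.2). The highest baseline mouse had 37.2 times the lowest, and this ratio was 29 among day 7 mice and 15.2 among day 14 mice. Only 5 of 8 mice at day 7 were above the baseline median. The log2 fold change at day 7 was 0.59 (SE 0.86, interval -1.20 to 2.38, edgeR adjusted p = 0.675).

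The first comparison asked which genes differ between the injured pancreas at day 7 and the non-injured pancreas. With edgeR's quasi-likelihood test, sex as a covariate and a call at an adjusted p of at most 0.05 with a fold change of at least 1.5, 0 of the 7 genes tested were called at day 7, where 5.13% of all 12195 genes tested were called. None had an unadjusted p under 0.05, and DESeq2 also called 0. All 7 had a positive log2 fold change, with a median of 0.93 against 0.0223 over all genes. These genes varied together across mice, so the 7 signs are not independent observations. Library scaling bore on this comparison, since total counts in place of TMM moved the median of all genes to 0.48, and there *H2-DMa* was called (log2 fold change 1.34, SE 0.57, edgeR adjusted p = 0.0397), while 30.6% of all genes were. Relative to that median *H2-DMa* stood at 0.87.

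Single mice decided much of the size. Without baseline mouse 5, the log2 fold changes of the 7 genes at day 7 were between 1.37 for *H2-DMa* and 1.70 for *H2-DMb1*, with edgeR adjusted p between 0.052 and 0.209. Without mouse 10 at day 7 they were from 0.41 to 0.57 for 6 genes and -0.23 for *Ciita*. No gene was called without any one mouse. Without all 5 mice with *Glycam1*, 6 genes lay between 0.60 and 0.93 and *Ciita* was at 0.16 (SE 0.51, edgeR adjusted p = 0.88), and 0 of 7 were called, with 4.63% of all genes called. *H2-Ab1* then had an unadjusted edgeR p of 0.0434 and an adjusted p of 0.156. Over all alternatives the adjusted p of a tested gene at day 7 ran from 0.0397 to 0.893.

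**Figure D2:**
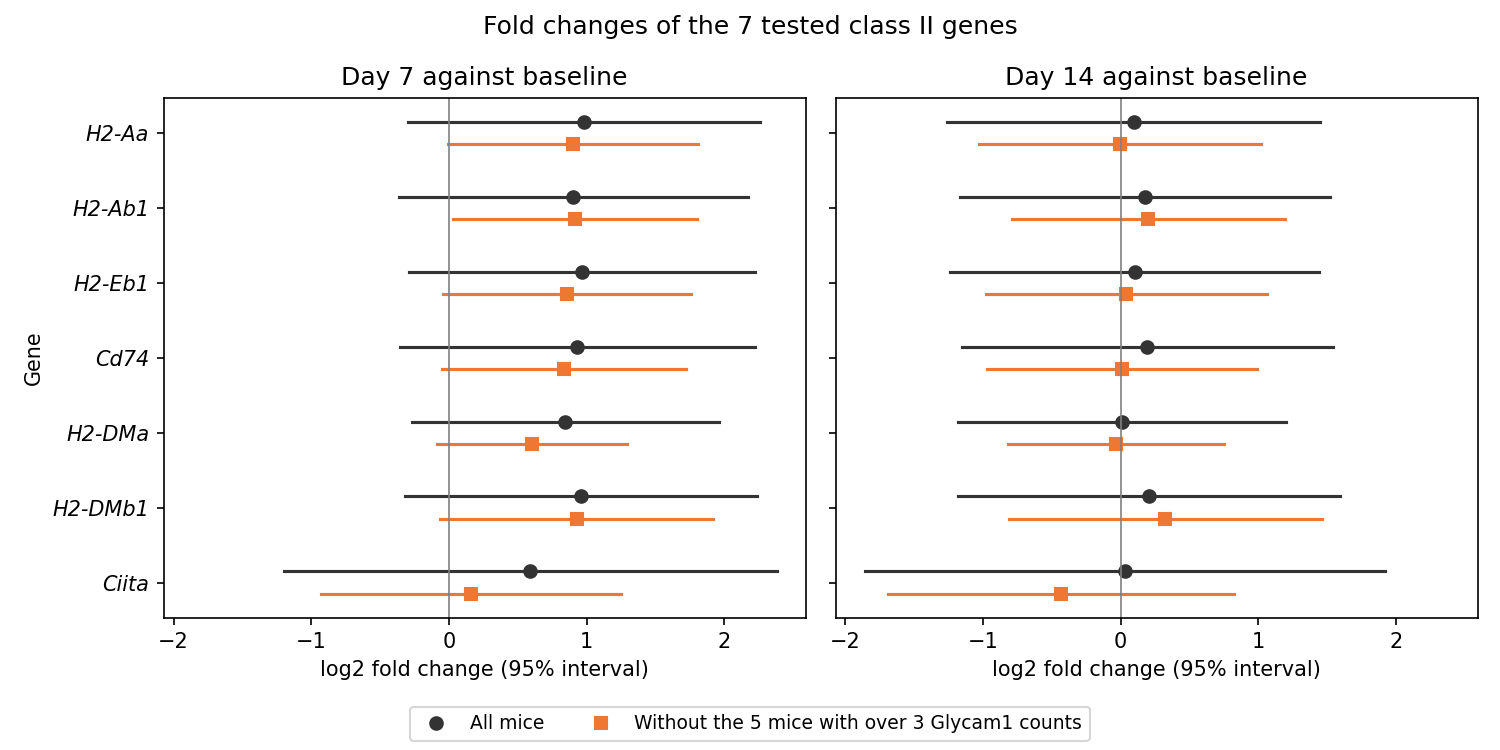
Log2 fold change (horizontal axis) of the 7 tested genes at day 7 and at day 14 against baseline, with 95% intervals as bars, for all 23 mice (circles) and without the 5 mice with more than 3 *Glycam1* counts (squares). All 14 intervals with all mice include 0, and at day 7 the squares of 6 genes stay between 0.60 and 0.93 while that of *Ciita* is at 0.16.

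At day 14 post-injury 0 of the 7 genes were called by edgeR or DESeq2, with 0.787% of all genes called and no unadjusted p under 0.05 among the 7. The log2 fold changes against baseline lay between 0.00747 for *H2-DMa* and 0.20 for *H2-DMb1*, with intervals at least as wide as -1.18 to 1.20 (edgeR adjusted p between 0.951 and 0.998). As fold changes, every one of these intervals reached down to 0.451 or less and up to 2.29 or more. Without the 5 mice with *Glycam1*, 4 genes were positive and 3 negative, *Ciita* among the latter at -0.44. Leaving out mouse 21 at day 14 turned all 7 negative (-0.89 for *Ciita* to -0.14 for *H2-DMb1*), and leaving out mouse 5 at baseline brought them to between 0.57 and 1.17. Mice without *Glycam1* also bore on the signs. Leaving out baseline mouse 8 turned 4 of the 7 negative, and leaving out baseline mouse 1, 6 or 7 turned 3 negative.

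Between day 14 and day 7, a comparison that shares its mice with the previous ones, 0 of 7 genes were called by edgeR or DESeq2, with 0.377% of all genes called. All 7 fold changes were negative, from -0.89 for *H2-Aa* (SE 0.63, edgeR adjusted p = 0.563) to -0.56 for *Ciita* (SE 0.87, adjusted p = 0.817), and none had an unadjusted p under 0.05. Without the 5 mice they were between -0.91 and -0.59, and 0 were called.

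Females and males were compared in the same fit, which holds the time point as a term. None of the 7 genes was called by edgeR or DESeq2 or had an unadjusted p under 0.05, with 0.23% of all genes called. The log2 fold changes of females against males were between -0.29 for *Ciita* and -0.00765 for *H2-Eb1*. The sign depended on single mice, and not only on those with *Glycam1*, of which 3 of the 5 were male. Without mouse 9 at day 7, which had 0 *Glycam1* counts, 4 of the 7 values were positive. Without mouse 10 all 7 stayed negative. Without mouse 5 alone all 7 values were positive (0.0208 to 0.39), as they were without all 5 (0.0744 for *H2-DMa* to 0.65 for *H2-Aa*, edgeR adjusted p between 0.579 and 0.962). In mean CPM of *Cd74*, females had 34.6 ± 24 (SD, n = 4) and males 46.7 ± 60.3 (n = 4) at baseline, and females 84.4 ± 79.8 and males 71.6 ± 57.9 (n = 4 each) at day 7. Whether the change from baseline differed by sex was tested as an interaction in a fit that kept all 8 genes. It was called for 0 of 8 at day 7, with 0.00773% of 12933 genes called, and for 0 of 8 at day 14, with 0% called, and no unadjusted p was under 0.05 (smallest 0.202, for *H2-DMa* at day 7).

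The spread between mice was large beside that of other genes. Within time points the SD of log2 CPM was 0.93 for *H2-DMa*, between 1.11 and 1.17 for *H2-Aa*, *H2-Ab1*, *H2-Eb1*, *Cd74* and *H2-DMb1*, and 1.55 for *Ciita*, against a median of 0.223 over the 12195 genes tested. Only 62 genes varied more than *Ciita* and 282 more than *H2-DMa*. The genes varied together, and the Pearson r of log2 CPM, after centring on time points, ran from 0.769 (*H2-DMa* with *H2-DMb1*) to 0.991 (*H2-Aa* with *Cd74*) over the 28 pairs, with 20 pairs over 0.9. These r are descriptions over 23 mice, each of which gives both values from 1 library.

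The ratio of 2 genes within a mouse does not depend on library scaling. The log2 ratio of *Cd74* to *H2-Ab1* averaged 1.24 ± 0.255 (SD, n = 8) in baseline mice, 1.22 ± 0.10 (n = 8) in day 7 mice and 1.15 ± 0.187 (n = 7) in day 14 mice, and day 7 differed from baseline by -0.0179 (exact permutation p = 0.851, adjusted p = 0.916 over 9 tests). *H2-Aa* over *H2-Ab1* was 0.54 ± 0.12 at day 7 and 0.37 ± 0.134 at day 14, a difference of -0.17 (exact p = 0.0211, adjusted p = 0.19 over 9 tests). None of the 9 ratio tests passed an adjusted p of 0.05. The 3 ratios to *H2-Ab1* had SDs of 0.10 to 0.324 within groups, beside the SD of 1.13 of *H2-Ab1* itself within time points.

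The other genes were too low in some mice for this test and are given as counts. Per 100 counts of *H2-Ab1*, the 5 mice with *Glycam1* had 215 to 263 counts of *Cd74* and 8.61 to 11 of *H2-DMa*, within the 180 to 337 and 5.97 to 37.1 of the other 18. They had 24.8 to 32.1 counts of *Ciita*, against a median of 12.6 (5.79 to 27.9) in the others, with 1 of the 18, mouse 3 at baseline with 19 *Ciita* counts, inside their range. They had 4.84 to 9.04 counts of *H2-DMb2*, against a median of 1.45 (0 to 5.71) in the others, with mouse 6 at 5.71 on 2 counts and mouse 4 at 4.82 on 11 counts. The split was made from *Glycam1* after seeing the data, so these ranges are given with no test.

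**Figure D3:**
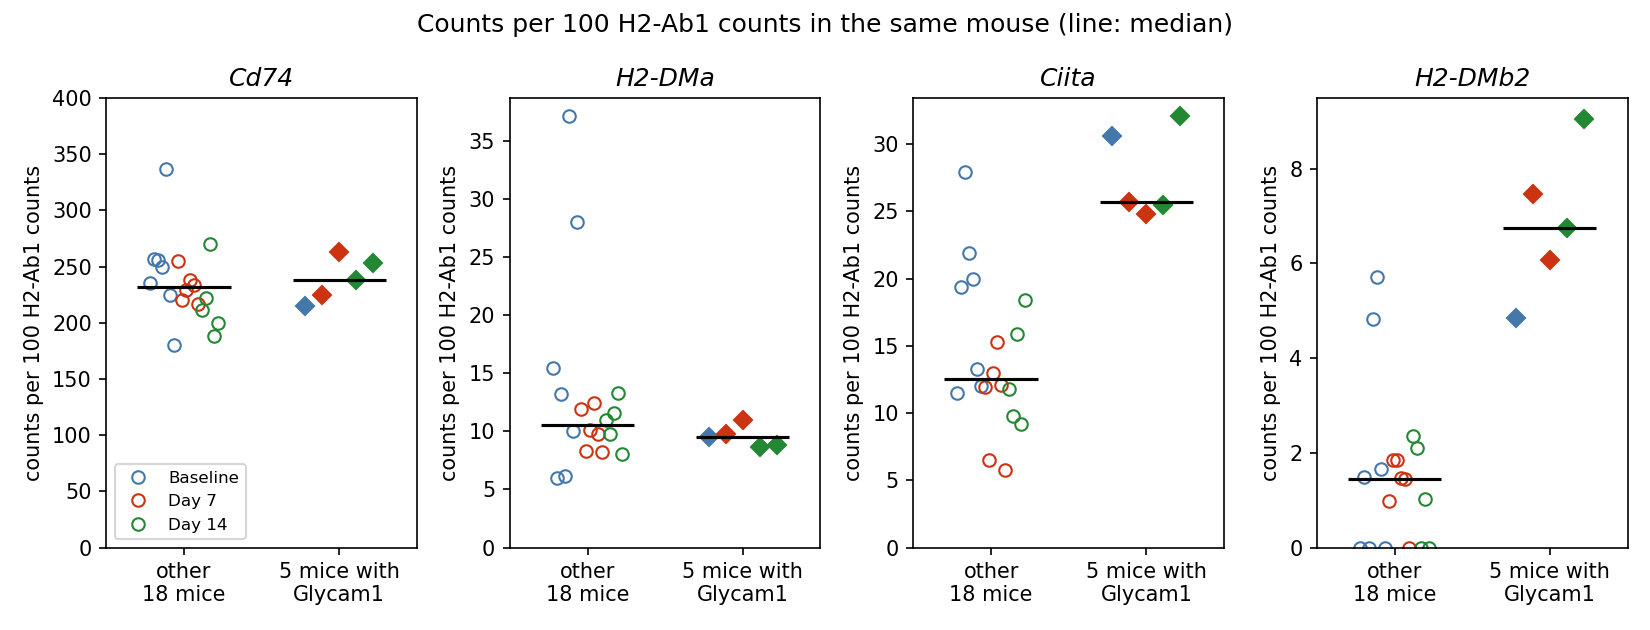
Counts of *Cd74*, *H2-DMa*, *Ciita* and *H2-DMb2* per 100 counts of *H2-Ab1* in the same mouse (vertical axes from 0), for the 18 mice with at most 1 *Glycam1* count and the 5 mice with more than 3, coloured by group, with lines for medians. For *Cd74* and *H2-DMa* the 5 mice lie within the range of the others. For *Ciita* and *H2-DMb2* they lie at or above 24.8 and 4.84, beside medians of 12.6 and 1.45 in the others. The highest of the others, at 27.9 and 5.71, overlap with them.

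Several cell types express class II, so *H2-Aa*, *Cd74* and *Ciita* were set against the summed CPM of marker lists over mice (12 relations, adjusted together, with 100000 permutations). T cells, also listed, are not among the main makers of class II named above. For macrophage markers the 23 mice formed no separate clusters. There *Cd74* had r = 0.889 and rho = 0.894 (permutation p = 1e-05 for both, the smallest these permutations can give, adjusted p = 1.09e-05 and 2.4e-05), and r = 0.836 without the 2 mice farthest from the median. Computed within each time point, r came to 0.962 for baseline mice, 0.939 for day 7 and 0.833 for day 14 (exact permutation p = 1.49e-04, 0.00126 and 0.0159, n = 8, 8 and 7). For *H2-Aa* r was 0.90 and rho 0.891 (permutation p = 1e-05 for both, adjusted p = 1.09e-05 and 2.4e-05), and r = 0.853 without 2 mice. *Ciita* had r = 0.771 and rho = 0.711 (permutation p = 2e-05 and 2.2e-04, adjusted p = 2e-05 and 2.64e-04) and r = 0.695 without 2 mice, and within time points r was 0.969, 0.937 and 0.801 (exact permutation p = 2.48e-05, 7.94e-04 and 0.0192).

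For B cell and T cell markers the 5 mice with *Glycam1* had the highest sums. They formed no clear cluster, since their lowest sums were 37.1 and 12.2 CPM, against at most 25 and 8.41 CPM in the others. Over all 23 mice, these 5 included, r with B cell and T cell markers was 0.912 and 0.941 for *Cd74*. For *Ciita* it was 0.948 and 0.949. The relation was also computed in the other 18, as follows. *Ciita* with B cell markers had r = 0.826 and rho = 0.763 (permutation p = 2e-05 and 4e-04, adjusted p = 8e-05 and 0.0016) and r = 0.719 without the 2 farthest mice. *Cd74* with B cell markers had r = 0.745 and rho = 0.531 (permutation p = 2.3e-04 and 0.0251, adjusted p = 4.6e-04 and 0.0468) and 0.559 without 2 mice. In these 18 mice *Cd74* with macrophage markers had r = 0.881 and rho = 0.820 (permutation p = 1e-05 and 5e-05, adjusted p = 6e-05 and 3.6e-04) and *Ciita* r = 0.696 and rho = 0.488 (permutation p = 0.00109 and 0.0415, adjusted p = 0.00145 and 0.0553). Within time points *Ciita* with B cell markers had r = 0.842 in 7 mice at baseline and 0.929 in 6 at day 7 (exact permutation p = 0.0173 and 0.00972), and the 5 mice left at day 14 were too few for a correlation. *Ciita* with macrophage markers had r = 0.985 and 0.924 in the same mice (exact permutation p = 1.98e-04 and 0.0194). With T cell markers *Cd74* had r = 0.862 and rho = 0.692 (permutation p = 3e-05 and 0.00211, adjusted p = 9e-05 and 0.00633), and r = 0.725 without 2 mice. *H2-Aa* had r = 0.715 and rho = 0.515 with B cell markers (permutation p = 6.6e-04 and 0.0312, adjusted p = 9.9e-04 and 0.0468), and r = 0.525 without 2 mice. Whether *Ciita* and *Cd74* differ in these relations was not tested. For dendritic cell markers *Cd74* had r = 0.433 and rho = 0.143 in the 18 mice (permutation p = 0.0733 and 0.57), and r = -0.0411 without 2 mice. *Ciita* had r = 0.58 there (rho = 0.422, permutation p = 0.0123 and 0.0822), which fell to 0.187 without 2 mice and so rests on them. The dendritic sum was weighted to *Zbtb46*, with a baseline median of 12.5 CPM beside 18.2 CPM for the list. With the mean log2 CPM of the list over all 23 mice, *Cd74* had r = 0.918 and rho = 0.874. *H2-Aa* had r = 0.905 and *Ciita* r = 0.94. These 23 include the 5 mice with *Glycam1*, with dendritic sums of 24.9 to 66.9 CPM against 13.3 to 22.9 in the others. That measure was not computed in the 18 mice.

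**Figure D4:**
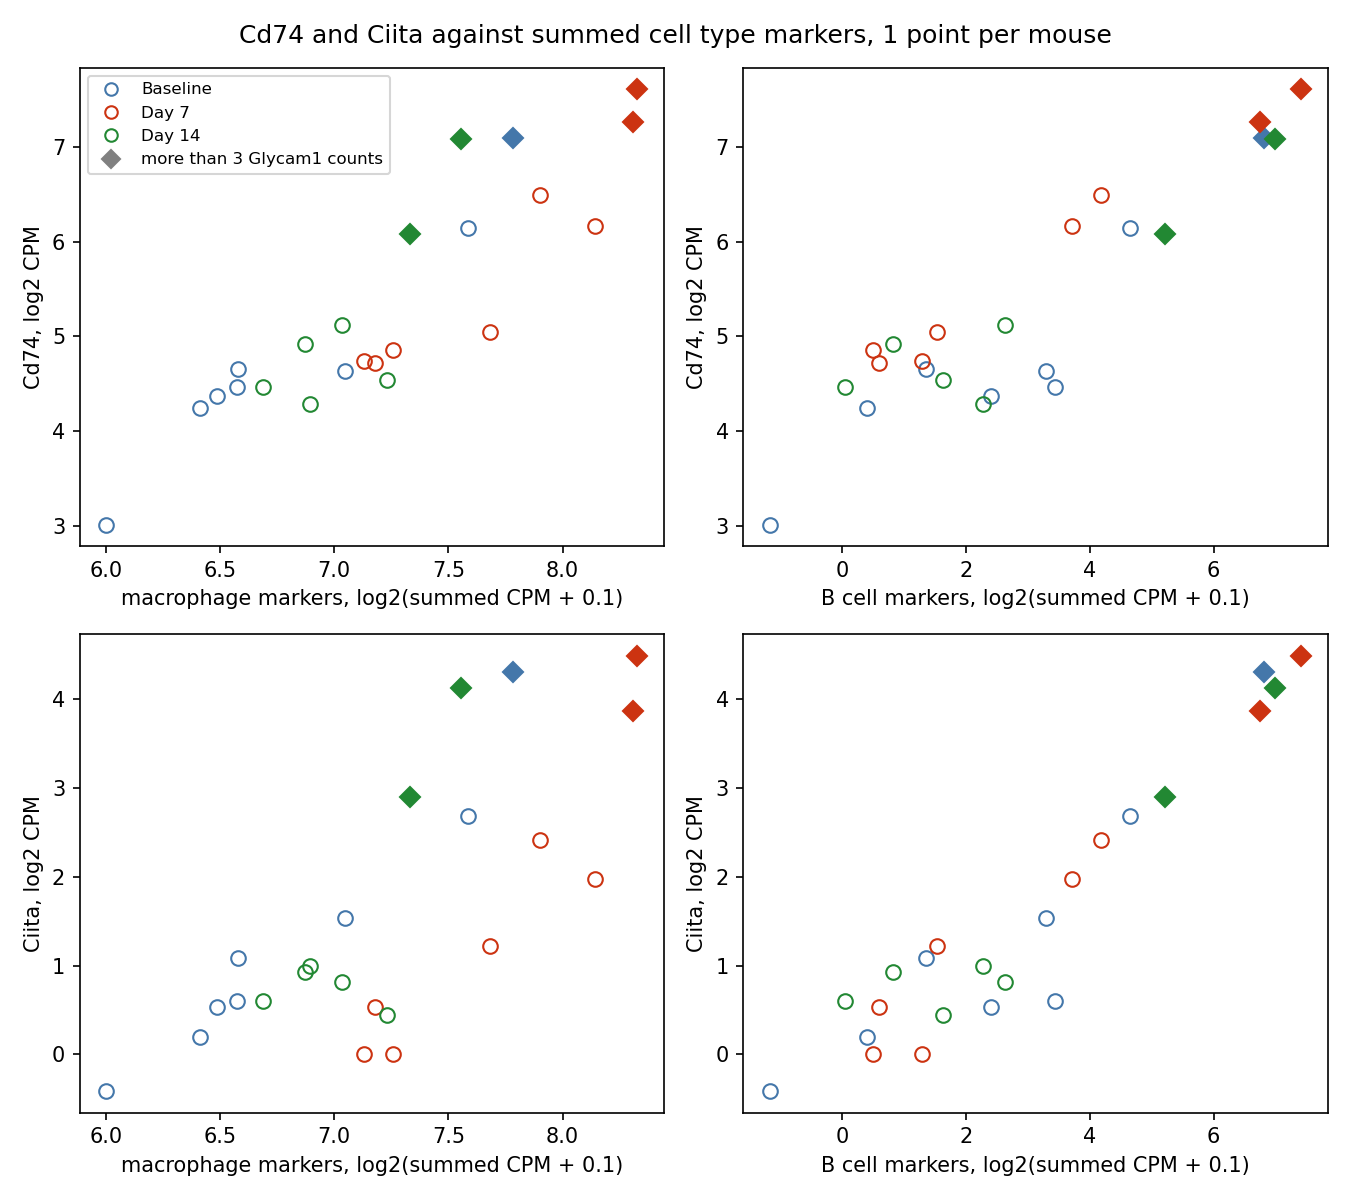
*Cd74* and *Ciita* (vertical axes, log2 CPM) against the summed CPM of 12 macrophage and 12 B cell markers (horizontal axes, log2 of the sum plus 0.1), 1 point per mouse, with filled diamonds for the 5 mice with more than 3 *Glycam1* counts. In the 18 open circles *Cd74* had r = 0.881 with macrophage and 0.745 with B cell markers. *Ciita* had r = 0.696 and 0.826 with the same lists, and whether the genes differ was not tested.

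Among the other 18 mice, the highest class II levels were in mouse 4 at baseline and mice 12 and 14 at day 7, named here after their values were seen. Mice 4 and 14 had 1 *Glycam1* count each and mouse 12 had 0. *Cd74* was at 70.4, 89.3 and 71.3 CPM there, similar to the 67.3 CPM of mouse 19, which had 180 *Glycam1* counts. B cell markers summed to 25, 18 and 13 CPM in these 3 mice and to 37.1 CPM in mouse 19. Their macrophage markers were at 192, 239 and 282 CPM, against 161 CPM in mouse 19. *Ciita* was at 6.16, 5.08 and 3.68 CPM beside 7.21 CPM.

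Markers of macrophages, B cells, T cells, dendritic cells, lymph node stroma and venules, and acinar cells were then compared between groups. Of 12 macrophage markers 11 were higher at day 7 and 8 were called, against 5.13% of all genes. Among the 8 were *C1qa* (log2 fold change 1.05, SE 0.24, edgeR adjusted p = 0.004), a complement component made by macrophages, and *Mrc1* (0.73, SE 0.16, adjusted p = 0.00259), the mannose receptor. Of the 11 markers tested without the 5 mice 6 were called, against 4.63% of all genes. At day 14 edgeR called 0 of 12, against 0.787% of all genes, and 1 of the 12 had an unadjusted p under 0.05. The summed level ran from 64 to 220 CPM at baseline and from 140 to 321 CPM at day 7. None of the 7 tested B cell markers was called (12 were measured, and none had an unadjusted edgeR p under 0.05), their summed level spanned 0.348 to 112 CPM in baseline mice, 1.32 to 170 CPM in day 7 mice and 0.937 to 127 CPM in day 14 mice, and between 0 and 10 of the 12 were at 0 in a mouse. Of 10 T cell markers only *Cd2* could be tested and was not called (log2 fold change 1.69, SE 1.07, edgeR adjusted p = 0.293). Of the 4 dendritic cell markers tested of 12, *Zbtb46*, known from classical dendritic cells and also from endothelium, fell by 0.60 on the log2 scale (SE 0.12, edgeR adjusted p = 6.69e-04) and the other 3 were not called, and the rest, *Xcr1*, *Clec9a* and *Flt3* among them, were too low. Of 6 genes of lymph node stroma and venules 3 were tested, 1 had an unadjusted edgeR p under 0.05 and 0 were called, and without the 5 mice *Ccl21a*, a T zone chemokine, was called (1.10, edgeR adjusted p = 0.0258). All 12 acinar genes were lower at day 7, with a median of -0.60 over the list, and 6 were called, against 5.13% of all genes. Without the 5 mice 5 were called, against 4.63% of all genes. The part of these cell types in the class II values was not tested.

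Of 17 regulators of class II transcription 16 were tested at day 7 and 1 was called, against 5.13% of all genes. This was *Ifngr1*, a chain of the interferon γ receptor, which rose by 0.62 (SE 0.18, edgeR adjusted p = 0.0188), from 10.5 ± 3.15 CPM (SD, n = 8) to 16.2 ± 4.87 CPM (n = 8). Without the 5 mice its log2 fold change was 0.50 (adjusted p = 0.0068), under the fold threshold. *Ifng* itself had at most 4 counts in a mouse and 0 in 20 of 23. The RFX subunits *Rfx5*, *Rfxap* and *Rfxank*, the anchors of the X box, lay between -0.13 and -0.11, and *Nfya*, *Nfyb* and *Nfyc* between 0.0134 and 0.15 (edgeR adjusted p of at least 0.47 for all 6). *Irf8* and *Spi1*, factors of myeloid and B cells, were at 0.89 and 0.73 (SE 0.83 and 0.49, edgeR adjusted p = 0.487 and 0.319). *Creb1* had an adjusted p of 0.00954 at a log2 fold change of 0.28, under the fold threshold. The median of the list was 0.21. At day 14 edgeR called 0 of 16, against 0.787% of all genes, and none of the 16 had an unadjusted p under 0.05.

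Of 9 genes of antigen processing and class II turnover 1 was called at day 7, against 5.13% of all genes. *Lgmn*, an endosomal protease that starts the cleavage of the invariant chain, rose by 1.25 on the log2 scale (SE 0.22, edgeR adjusted p = 4.1e-04), from 5.83 ± 1.90 CPM (n = 8) to 14.1 ± 4.67 CPM (n = 8), and by 1.10 without the 5 mice (adjusted p = 6.58e-04). *Ctss*, the cathepsin that completes that cleavage, was at 1.29 (SE 0.53, adjusted p = 0.0981), and *March1*, the ligase that sends class II for degradation, was at 1.40 (SE 0.68, adjusted p = 0.161). Without the 5 mice, where 4.63% of all genes were called, both passed edgeR, at 1.34 (adjusted p = 0.018) and 1.09 (adjusted p = 0.0334). The other members, *Ctsl*, *Ctsb*, *Ctsd*, *Ifi30*, *Sppl2a* and *March8*, lay between -0.11 and 0.18, with *Ctsd* at an adjusted p of 0.028 under the fold threshold. The median of the list was 0.17. At day 14 edgeR called 0 of 9, against 0.787% of all genes, and 2 of the 9 had an unadjusted p under 0.05.

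Of 8 costimulation genes 5 were tested and 0 called by edgeR at either time, against 5.13% of all genes at day 7 and 0.787% at day 14. None of the 5 had an unadjusted p under 0.05. *Cd86*, the ligand of CD28 on antigen-presenting cells, was at 0.99 (adjusted p = 0.288) and *Cd83* at 1.26 (adjusted p = 0.304), and the median of the list was 0.74. Other class II genes had most of their counts in the 5 mice with *Glycam1*. *H2-Ob* had 53 to 289 counts there and 1 to 23 in the other 18, *H2-Eb2* 11 to 111 against 0 to 7, and *H2-Oa* 9 to 37 against 0 to 6. Of these 3 only *H2-Ob* could be tested, with a log2 fold change of 0.98 at day 7 (SE 1.13, edgeR adjusted p = 0.586).

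The genes whose pattern was most like that of the 7 tested genes were sought by Pearson r with their mean log2 CPM over 23 mice, after centring on time points. The 10 highest of 12188 included *Ptprc* (0.979), which encodes the pan-leukocyte antigen CD45, *Itga4* (0.98), *Ctss* (0.973), *Inpp5d* (0.973), *H2-K1* (0.972), a class I molecule, *Gimap3* (0.970), *Syk* (0.970), *Serpina3g* (0.969) and *Dock2* (0.969). None of the 10 was called at day 7, where 5.13% of all genes tested were called. In all, 212 genes were over 0.9. The list of 10 and the number over 0.9 depended on the measure. Centred Spearman rho shared 3 of the 10 and put 75 genes over 0.9, and uncentred Spearman rho shared 2 and put 42 over 0.9. In the 18 mice with at most 1 *Glycam1* count 25 genes were over 0.9, and 5 of the 10 highest were shared, *Ptprc*, *Itga4*, *Ctss* and *H2-K1* among them. *Ptprc* ranged from 3.31 to 158 CPM across mice.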

How the data were processed

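The pancreatic head of 23 mice gave total RNA, sequenced as ribosome-depleted stranded libraries with paired reads of 75 bases. The authors trimmed the reads (FastQC, Trim Galore and cutadapt), aligned them to mm10 with STAR 2.5.2a and deposited raw counts of uniquely mapped fragments per gene from featureCounts. The strand setting of the counting and the annotation are not given in the sources used here. Mouse 20 was not analysed here.

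Counts were tested with edgeR 4.0.16 (R 4.3.3) in 1 fit of all mice, with time point and sex as terms, TMM scaling, filterByExpr and the robust quasi-likelihood test, and with Benjamini-Hochberg adjustment over all 12195 genes. DESeq2 1.42.0 was an alternative. Calls needed an adjusted p no higher than 0.05 with a fold change of 1.5 or more, and interactions the adjusted p alone. The SE was derived from the F statistic and restates the test. Log2 CPM used a prior count of 2. Exact or 100000-draw two-sided permutation tests (numpy 2.4.6, with ranks from scipy 1.17.1) served single values and correlations. The edgeR step was tested on simulated data. Libraries held 7059890 to 9567446 counts, and floors cover counting error only. Intervals of fold changes come from the edgeR fit and hold the spread between mice. Each library is labelled as a separate mouse.

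The 8 genes and the lists were chosen with earlier results of these data known. Named genes were these 8, genes of the lists, and the 10 genes with the highest centred Pearson r with the mean log2 CPM of the 7 tested genes. Alternatives covered scaling, filters, thresholds, covariates and each mouse left out. The 5 mice with more than 3 *Glycam1* counts and the principal transcript length were added after seeing the data. *H2-Ea*, *H2-Ea-ps*, *Ighm*, *Ighd*, *Trac*, *Trbc2* and *Fdcsp* were not analysed here. Of the genes that the naming rule allows, 1 is not reported here.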

Additional observations from a re-analysis of the deposited data

Results flagged for a closer look

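In 9 of 24 groups of CPM values (8 genes at 3 time points), 1 mouse lay farther from the rest than Dixon's 95% critical value allows, and in each it was the highest mouse. This rule flags about 5% of groups by chance only where values are normally distributed. CPM were right-skewed here, as for *H2-Aa* at baseline with a mean of 24.5 and a median of 15.1. The 9 flags can therefore not be read against 5%, and the rule was not applied to log2 CPM. The 8 genes also share their mice, so the flags are not independent. At baseline the mouse was mouse 5, with 63.6 CPM of *H2-Ab1* against 28.1 in the next mouse, 6.03 CPM of *H2-DMa* against 2.26, 3.08 CPM of *H2-DMb2* against 1.36 and 19.4 CPM of *Ciita* against 6.16. At day 14 it was mouse 21, with 77.9 CPM of *H2-Aa* against 34.2, 135 CPM of *Cd74* against 67.3, 4.72 CPM of *H2-DMa* against 2.44, 4.83 CPM of *H2-DMb2* against 1.91 and 17.2 CPM of *Ciita* against 7.21. No group at day 7 had such a mouse, where mice 10 and 15 were both high. Mouse 5 had 42 and mouse 21 had 38 *Glycam1* counts, and the part of lymph node tissue in these values was not tested.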

How the results depend on the processing

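With 7 tested genes, edgeR and DESeq2 called 0 in every comparison under every alternative but one. Total count scaling called 1, *H2-DMa*, at day 7. Over alternatives the adjusted p ran from 0.0397 to 0.893 at day 7, 0.518 to 1 at day 14, 0.126 to 0.961 between day 14 and day 7, and 0.579 to 1 between the sexes. Leaving out 1 mouse moved *Ciita* at day 7 between -0.23 and 1.59, and between -1.39 and 0.23 for day 14 against day 7, with the sign turned by mouse 10. At day 14 the ranges were -0.49 to 0.79 for *H2-Aa*, -0.32 to 0.97 for *H2-Ab1*, -0.41 to 0.80 for *H2-Eb1*, -0.38 to 0.89 for *Cd74*, -0.38 to 0.57 for *H2-DMa*, -0.14 to 0.996 for *H2-DMb1* and -0.89 to 1.17 for *Ciita*, lowest without mouse 21 and highest without mouse 5. Between the sexes they were -0.37 to 0.36, -0.43 to 0.35, -0.34 to 0.39, -0.42 to 0.30, -0.62 to 0.0208, -0.48 to 0.33 and -0.93 to 0.31 in the same order, lowest without mouse 10 and highest without mouse 5.

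Without the 5 mice with *Glycam1*, the day 14 values of *H2-Aa*, *H2-DMa* and *Ciita* were -0.0075, -0.0345 and -0.44, and *H2-DMa* was at -0.00292 when only the 2 groups compared were fitted. Between the sexes, *H2-Aa*, *H2-Ab1*, *H2-Eb1*, *Cd74*, *H2-DMa*, *H2-DMb1* and *Ciita* came to 0.65, 0.50, 0.60, 0.54, 0.0744, 0.24 and 0.55 without the 5 mice, and total count scaling gave 0.0185 for *H2-Aa*, 0.0644 for *H2-Eb1* and 7.71e-05 for *H2-DMb1*. The *H2-DMb2* difference was -0.00574 CPM at day 7 and -0.13 CPM at day 14 without the 5 mice. The cause was not tested.

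Counts over all genes moved most with scaling, from 626 to 3727 at day 7, 96 to 449 at day 14 and 46 to 477 between day 14 and day 7. Without a fold threshold they were 2264, 192 and 157, and 70 in place of 28 between the sexes. Requiring 10 counts in every mouse gave 348, 66, 30 and 16, and DESeq2 gave 44 between the sexes. No paired analysis was possible because mouse numbers are unique across groups. Depth limits *H2-DMb2*, *H2-DMb1*, *H2-DMa* and *Ciita*, which had under 10 counts in some mice.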

Other observations

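In the 18 mice with at most 1 *Glycam1* count, the genes most like the class II set by centred Pearson r included *Irgm2* (0.965), *Ptprc* (0.951), *Ifit3* (0.932), *H2-K1* (0.931), *Lyz2* (0.926), *Itga4* (0.925), *Ctss* (0.925), *Vim* (0.919) and *Elf4* (0.919). *Irgm2* and *Ifit3* are known as interferon-induced genes, and *Lyz2* as a gene of myeloid cells. These r are descriptions over 18 mice that share the libraries of both values.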
